A study of Arabidopsis thaliana with 16 samples.

Results

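The 8 genes described here encode regulators of embryo identity and seed maturation in Arabidopsis thaliana. They were taken by locus number from gene tables of histone Khib, and they are 8 of the 32548 genes listed. The rule names the loci and uses no measured value, but the group was picked with earlier results of these data known. Khib, or lysine 2-hydroxyisobutyrylation, is an acyl mark on histone lysines that lies over genes. Sequencing of immunoprecipitated chromatin mapped it in whole 12-day-old seedlings grown at 22 °C, with 16 h light and 8 h darkness. The mutants were sant-null, given as quadruple mutants with no locus named, hda6, given as an EMS line, and hda9, given as a T-DNA insertion line. The last pair are mutants of the histone deacetylase genes HDA6 and HDA9, and the labels name no allele. The wild type Col-0 served for comparison, and all seedlings were untreated.

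LEC1, L1L, LEC2, FUS3 and ABI3 act in the developing embryo, where they switch on storage protein, oil and desiccation programs. ABI4 and ABI5 carry the abscisic acid signal in seeds and young seedlings, and DOG1 sets seed dormancy. After germination this network is shut off by VAL proteins, Polycomb complexes and the chromatin remodeller PICKLE. HDA6, acting with HDA19, is also known to hold embryonic genes off in seedlings, and HDA9 is known for its part in seed dormancy and germination.

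Each genotype had 2 ChIP and 2 input libraries, but the tables hold 1 ChIP value per genotype. There is therefore no replicate check of any difference, no test was possible, and all intervals are 95% intervals for counting error only. Levels are RPKM, reads per kilobase of gene scaled to the depth of the table, and whether input reads entered them is not stated. A level is therefore relative to the other reads of its table, and a change of the mark over all genes alike would not show. In these bulk seedlings, fewer cells carrying the mark at a gene and less of the mark per cell cannot be told apart. The RPKM steps corresponded to 12.0 M reads for sant-null, 38.8 M for hda9, 16.8 M for hda6 and 18.6 M for Col-0. The range of levels also differed: the 90th percentile of genes was 10.1 times the 10th in sant-null, 3.90 times in hda9 and 13.4 times in hda6, against 10.6 times in Col-0. All 8 regulators passed the filter of at least 1 RPKM in at least 2 genotypes, as did 31805 genes.

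The regulators did not share one level of Khib. In Col-0 they ran from 23.2 RPKM at ABI4 through 21.2 at L1L, 14.8 at ABI3, 11.1 at LEC1, 10.9 at ABI5, 6.15 at DOG1 and 4.41 at LEC2 to 2.84 at FUS3. The intervals of neighbours in this order overlapped only for ABI4 with L1L and for LEC1 with ABI5. The median gene had 5.63 RPKM in Col-0, so 6 of the 8 lay above it and LEC2 and FUS3 below. L1L led in each mutant. FUS3 was lowest in hda6, while FUS3 and LEC2 were lowest, with overlapping intervals, in sant-null and hda9. In sant-null the first 5 genes of the order, L1L, ABI3, ABI5, ABI4 and DOG1, spanned 15.0 to 12.1 RPKM, and each interval overlapped the next.

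**Figure D1:**
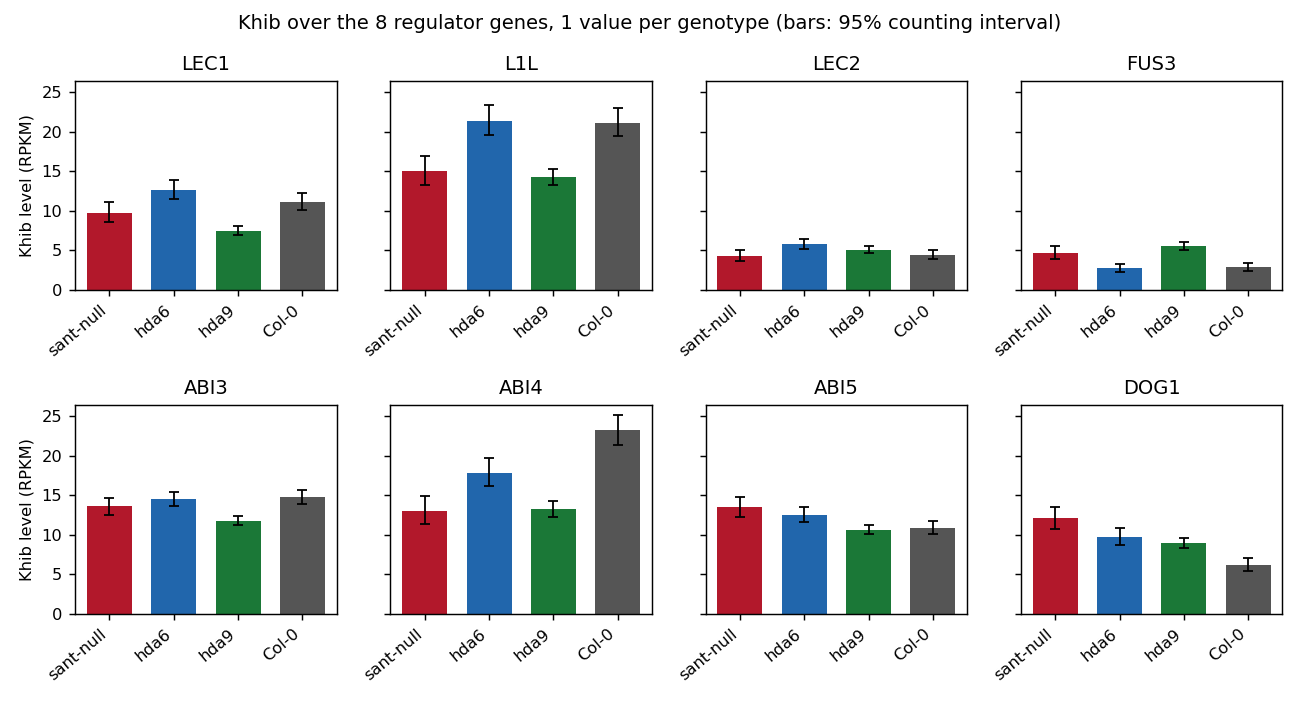
Khib level in RPKM (y axis) of each regulator gene in sant-null, hda6, hda9 and Col-0 seedlings. Each bar is the 1 value of a genotype and the error bars are 95% intervals for counting error only. ABI4 was lower in the mutants than its 23.2 RPKM in Col-0, and DOG1 was higher in them than its 6.15 RPKM in Col-0.

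LEC1 and L1L encode related B subunits of the nuclear factor Y complex, a trimer that binds DNA, and both act in the embryo. LEC1 (AT1G21970, chromosome 1, 7727577 to 7729649, minus strand, TAIR10) had 9.77 RPKM in sant-null, 7.47 in hda9 and 12.7 in hda6, against 11.1 in Col-0. Its fold over Col-0 was 0.671 in hda9 (0.592 to 0.761), from 600 and 429 reads. It was 0.878 in sant-null (0.747 to 1.03) and 1.14 in hda6 (0.995 to 1.30), and both of those intervals include 1. The rank of LEC1 among all genes moved most of the 8, to percentile 35.4 in hda9, against 76.7 in Col-0. In sant-null it stood at percentile 62.2 and in hda6 at 74.7.

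L1L (AT5G47670, listed as NF-YB6, chromosome 5, 19314778 to 19316169, plus strand) had 15.0 RPKM in sant-null, 14.2 in hda9 and 21.4 in hda6, against 21.2 in Col-0. The fold was 0.710 in sant-null (0.609 to 0.826), 0.672 in hda9 (0.602 to 0.752) and 1.01 in hda6 (0.894 to 1.14). L1L was thus lower than Col-0 beyond counting error in sant-null and hda9. Set against genes of like level, as described further on, its log2 ratio differed by -0.41 in sant-null and by only -0.10 in hda9. Its rank stayed between percentiles 83.0 and 91.7 in the 4 genotypes. The gene shares 116 bp with AT5G47660 and 124 bp with TRM10 on the opposite strand. Reads of ChIP carry no gene strand, so those in the shared stretches belong to either.

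LEC2, FUS3 and ABI3 encode transcription factors with a B3 DNA-binding domain, which recognises the RY element of seed genes. They held very different levels. ABI3 (AT3G24650, chromosome 3, 8997370 to 9001185, plus strand), which also carries abscisic acid signalling, had 13.6 RPKM in sant-null, 11.7 in hda9 and 14.5 in hda6, against 14.8 in Col-0. Its fold was 0.918 in sant-null (0.830 to 1.01), 0.795 in hda9 (0.736 to 0.859) and 0.980 in hda6 (0.896 to 1.07). Its highest level was 1.26 times its lowest, the narrowest span of the 8.

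FUS3 (AT3G26790, chromosome 3, 9853828 to 9856212, minus strand) had 4.68 RPKM in sant-null, 5.54 in hda9 and 2.70 in hda6, against 2.84 in Col-0. The fold was 1.65 in sant-null (1.28 to 2.12), 1.95 in hda9 (1.60 to 2.39) and 0.952 in hda6 (0.729 to 1.24), from few reads, 108 in hda6 and 126 in Col-0. In rank FUS3 stayed low, at percentiles 26.1, 18.4 and 18.3 in sant-null, hda6 and hda9, against 22.1 in Col-0. The higher level in hda9 thus went with a lower rank among all genes of that table. No island was listed at FUS3, as given with the islands.

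LEC2 (AT1G28300, chromosome 1, 9896867 to 9899876, minus strand) had 4.32 RPKM in sant-null, 5.07 in hda9 and 5.77 in hda6, against 4.41 in Col-0. The fold was 0.979 in sant-null (0.796 to 1.20), 1.15 in hda9 (0.990 to 1.34) and 1.31 in hda6 (1.10 to 1.56). LEC2 thus had a gene level above Col-0 beyond counting error in hda6, as most genes had ratios above 0 there. Its log2 ratio in hda6 stood at percentile 66.9 of all genes. The intervals of the other mutants include 1, and the mutants were not tested against each other. The islands listed at LEC2 have folds below 1 in each mutant, given with the islands. Its rank was at percentile 23.6 in sant-null, 15.3 in hda9 and 41.2 in hda6, against 39.3 in Col-0.

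ABI4, a factor of the AP2 family, and ABI5, a bZIP factor that blocks seedling growth when abscisic acid is high, act in the same hormone pathway. ABI4 (AT2G40220, chromosome 2, 16796247 to 16797585, minus strand) had 13.01 RPKM in sant-null, 13.2 in hda9 and 17.8 in hda6, against 23.2 in Col-0. The fold was 0.560 in sant-null (0.476 to 0.658), 0.569 in hda9 (0.509 to 0.637) and 0.768 in hda6 (0.675 to 0.874). ABI4 was the one regulator of the 8 whose interval lay below 1 in each of the 3 mutants. All 3 folds share the Col-0 value of 578 reads, so they are not independent of each other.

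ABI5 (AT2G36270, chromosome 2, 15204659 to 15207636, minus strand) had 13.5 RPKM in sant-null, 10.6 in hda9 and 12.5 in hda6, against 10.9 in Col-0. The fold was 1.24 in sant-null (1.10 to 1.40), 0.975 in hda9 (0.883 to 1.08) and 1.15 in hda6 (1.03 to 1.29). These differences were small beside the 1.5-fold used to call genes, and the island listed inside ABI5 has folds below 1, given with the islands. ABI5 ranked between percentiles 65.8 and 78.6 in the 4 genotypes.

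DOG1 (AT5G45830, chromosome 5, 18589418 to 18591506, minus strand), named for delayed germination, had 12.1 RPKM in sant-null, 8.90 in hda9 and 9.69 in hda6, against 6.15 in Col-0. The fold was 1.97 in sant-null (1.65 to 2.34), 1.45 in hda9 (1.25 to 1.68) and 1.58 in hda6 (1.33 to 1.87). DOG1 was the one regulator whose interval lay above 1 in each mutant, and these folds too share 1 Col-0 value, of 239 reads. No island was listed at DOG1, as given with the islands. In rank it stood at percentile 73.6 in sant-null, 50.2 in hda9 and 63.5 in hda6, against 53.9 in Col-0.

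**Figure D2:**
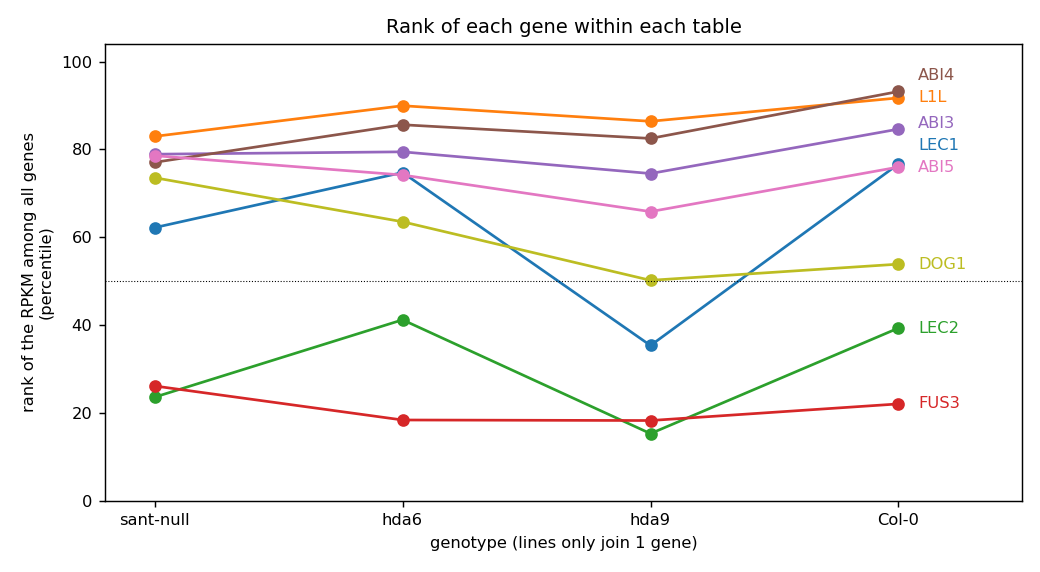
Rank percentile of each regulator's RPKM among all 32548 genes of the same table (y axis) in sant-null, hda6, hda9 and Col-0 (x axis). Each point is 1 gene in 1 genotype, the lines join the points of a gene, and the dotted line marks the median gene. LEC1 stood at percentile 35.4 in hda9, against 76.7 in Col-0, while FUS3 stayed between 18.3 and 26.1.

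For counts over genes, a difference was called at 1.5-fold on the log2 scale of (RPKM + 1), which understates the change of low genes. In sant-null, which concerns the SANT-domain proteins of the series title, DOG1 was higher (log2 ratio 0.87) and ABI4 lower (-0.79), with 6 of the 8 not called. Over all genes, 23.7% were called higher and 6.01% lower. FUS3, at 0.57, lay just short of the threshold of 0.58. The median of the 8 log2 ratios was -0.07, beside 0.28 over all genes, and 3 of the 8 lay above the gene median.

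In hda6, none of the 8 was called in either direction, where 9.08% of all genes were called higher and 3.05% lower. DOG1 came closest, with a log2 ratio of 0.58 that missed the threshold in the third decimal. ABI4 was at the other end with -0.36. The median of the 8 was 0.09, beside 0.20 over all genes, and DOG1 and LEC2 were the members above that gene median.

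In hda9, FUS3 was called higher (0.77) and ABI4 lower (-0.77), with 6 of the 8 not called. Over all genes, 43.7% were called higher and 9.08% lower. L1L (-0.54) and LEC1 (-0.52) were lower but short of the threshold, and ABI3 had -0.31. The median of the 8 was -0.17, beside 0.48 over all genes, and FUS3 was the one member above the gene median. With the ratios centred on that median, 0 of the 8 were higher and 4 lower, namely ABI4, L1L, LEC1 and ABI3. The shares of all genes then were 15.4% higher and 22.3% lower. The 3 comparisons share the Col-0 values, so their directions are not independent.

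**Figure D3:**
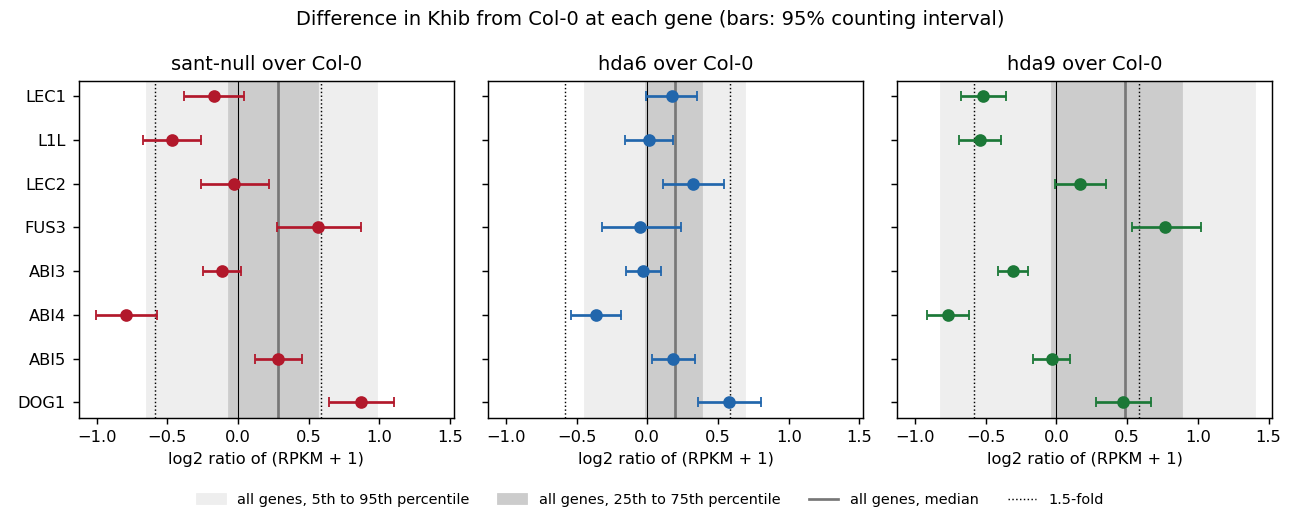
Log2 ratio of (RPKM + 1) to Col-0 (x axis) for each regulator in sant-null, hda6 and hda9. Points are single values with 95% intervals for counting error, shading and the grey line show the spread and median over 31805 genes, and dotted lines mark 1.5-fold. ABI4 lies on the left in all 3 panels, at -0.79, -0.36 and -0.77, and DOG1 lies right of 0 in all 3.

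Part of this pattern followed the level of a gene. In hda9, the genes at the level of FUS3 had a running median log2 ratio of 0.97 and those at the level of L1L and ABI4 one of -0.44. Over the 8 regulators the rank correlation of the Col-0 level with the log2 ratio was -0.952 in hda9, beside -0.736 over all genes. These correlations run across genes, and the Col-0 level enters both axes. In sant-null they were -0.857 and -0.289, and in hda6 -0.452 and 0.0461.

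Set against genes of like level, the order of the regulators changed. In hda9 all 8 lay below the running median, from -0.10 at DOG1 and at L1L to -0.76 at LEC2 and -0.85 at LEC1. FUS3, the gene called higher in hda9, was 0.20 below the genes of its own level, and ABI4 was 0.33 below, so neither kept its call by this measure. In sant-null, ABI4 was lowest at -0.75, followed by LEC2 at -0.51, LEC1 at -0.44 and L1L at -0.41, while DOG1 was 0.53 above, short of 1.5-fold. In hda6, ABI4 was at -0.49 and DOG1 at 0.29, and the other 6 lay between -0.24 and 0.03.

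**Figure D4:**
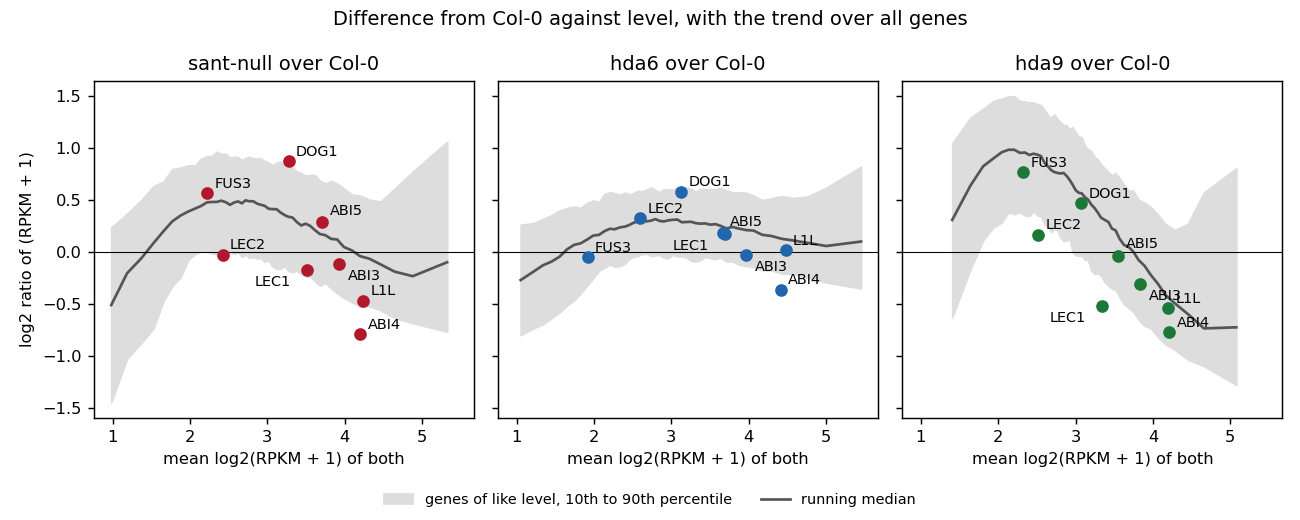
Log2 ratio of (RPKM + 1) to Col-0 (y axis) against the mean log2(RPKM + 1) of the mutant and Col-0 (x axis) for sant-null, hda6 and hda9. The line is the running median over 1001 genes of like level, the shading holds the 10th to 90th percentile, and points are the regulators. In the hda9 panel the points of LEC1 and LEC2 lie 0.85 and 0.76 below the line.

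At ABI4, in sant-null and hda9, 1 neighbour differed from the regulator in direction and the other did not. Beside ABI4, AGL48, a MADS-box gene 1918 bp away, had 6.65 RPKM in sant-null, 9.48 in hda9 and 4.44 in hda6, against 3.85 in Col-0. The fold of AGL48 was 1.72 in sant-null (1.26 to 2.36) and 2.46 in hda9 (1.93 to 3.16), the direction opposite to that of ABI4, and 1.15 in hda6 (0.837 to 1.59). On the other side, AT2G40230, 5494 bp away, had 38.8 RPKM in Col-0. Its folds were 0.703 in sant-null, 0.429 in hda9 and 1.04 in hda6, so it was lower together with ABI4 in sant-null and hda9. In hda9 the running median log2 ratio was 0.76 near the level of AGL48 and -0.73 near that of AT2G40230. Genes of those levels thus had the same directions there. At LEC1, the neighbour AT1G21960, 990 bp away, had 12.7 RPKM in sant-null, 13.5 in hda9 and 4.56 in hda6, against 4.81 in Col-0. PIP5K1 on the far side had folds of 1.69 in sant-null, 1.93 in hda9 and 1.44 in hda6 (1.22 to 1.69). Both neighbours were thus above Col-0 in sant-null and hda9, where LEC1 had folds below 1, while in hda6 PIP5K1 and LEC1 both had folds above 1.

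At DOG1, the neighbours moved in part with it. The protein kinase gene CIPK20, 625 bp away, had 13.04 RPKM in sant-null, 10.5 in hda9 and 12.8 in hda6, against 9.42 in Col-0. Its folds were 1.38 in sant-null (1.18 to 1.62) and 1.36 in hda6 (1.17 to 1.57), below those of DOG1, with intervals that overlap those of DOG1 in hda6 and not in sant-null. AT5G45840 on the other side had 3.34 RPKM in sant-null and 5.36 in hda9, with 2.09 in hda6, against 2.24 in Col-0. Of the 20 genes around DOG1, 2 had a higher log2 ratio than DOG1 in sant-null, 9 in hda9 and 5 in hda6. Several other regulators stood below most of their surrounding genes, while FUS3 stood above most of them in sant-null and hda9. In hda9, of the 20 genes around each, 19 had a higher log2 ratio than LEC1, 18 than ABI4, 17 than L1L, 17 than ABI3, 14 than LEC2 and 14 than ABI5. In sant-null the counts were 15 for LEC1, 17 for ABI4, 18 for L1L, 17 for ABI3, 12 for LEC2 and 11 for ABI5. In hda6 they were 10 for LEC1, 16 for ABI4, 16 for L1L, 14 for ABI3, 5 for LEC2 and 7 for ABI5. For FUS3 they were 3 in sant-null, 4 in hda9 and 11 in hda6. The Col-0 medians of the flanking genes were 5.23 RPKM around ABI4, 8.94 around L1L, 4.39 around ABI3 and 5.01 around LEC1. These 4 regulators had higher Col-0 levels than that, and the counts were not corrected for the trend with level.

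The levels around FUS3 and LEC2 were read in the same way. The gene AT3G26782, 963 bp from FUS3, had 12.5 RPKM in sant-null, 12.8 in hda9 and 13.6 in hda6, against 9.67 in Col-0, where FUS3 had 2.84. On the other side AT3G26800, 5960 bp away, had 12.4 RPKM in sant-null, 11.5 in hda9 and 4.24 in hda6, against 8.16 in Col-0. LEC2 lies 5851 bp from the arabinogalactan protein gene AGP31 and 4833 bp from AT1G28305. AGP31 had 18.0 RPKM in sant-null, 12.9 in hda9 and 23.7 in hda6, against 26.4 in Col-0, and AT1G28305 had from 0.370 to 1.76 RPKM in the mutants, against 1.73 in Col-0. The median over the 20 flanking genes was 5.21 RPKM around FUS3 and 4.25 around LEC2 in Col-0.

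The authors also listed islands, stretches with enriched Khib reads, for each mutant and Col-0. In each of the 3 authors' deposited tables, 6 of the 8 regulators had an island over the gene or the 1000 bp before it, and FUS3 and DOG1 had none. FUS3 and DOG1 are also the regulators called higher at 1.5-fold, FUS3 in hda9 and DOG1 in sant-null. Those calls thus lie at genes with no listed island. Over all of the authors' islands the median fold was 0.902 for sant-null, 0.778 for hda9 and 0.997 for hda6. An island fold below 1 is therefore not low by itself in sant-null and hda9.

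The positions of the islands carry a limit. Each island at a regulator overlapped, by coordinates, an island listed on at least 1 other chromosome, and the ABI3 island and the long LEC2 island overlapped islands on all 4 others. The share of a gene covered by the islands of its own chromosome followed its Col-0 level with a rank correlation of 0.666 to 0.734 on chromosomes 3 and 5, across genes. On chromosomes 1, 2 and 4 it was 0.324 to 0.471, and with the islands of any other chromosome it was at most 0.315. At LEC2, the Col-0 reads of the long island, as the authors' deposited sant-null table gives them, came to 17.1 RPM per kilobase, 3.87 times the gene's 4.41 RPKM. Only 1334 of the 6000 bp of that island lie in LEC2, so the island and gene values need not match. ABI3 and L1L are the regulators with an island on chromosome 3 or 5. Whether the islands on chromosomes 1, 2 and 4 carry the right chromosome was not tested. The folds given for islands at LEC1, LEC2, ABI4 and ABI5 may therefore belong to other loci.

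At ABI3 the authors' deposited tables placed the island inside the gene, on chromosome 3 at 8998201 to 8999600 in the sant-null table, with a fold of 0.900 for sant-null, 0.738 for hda9 and 0.846 for hda6. The L1L island on chromosome 5, 19315401 to 19316000, had folds of 0.576 for sant-null, 0.513 for hda9 and 0.919 for hda6 in the authors' deposited tables. The island at LEC1, near the end of the gene, had folds of 0.961 for sant-null, 0.779 for hda9 and 1.12 for hda6 in the authors' deposited tables. At ABI4 the island covers the start of the gene. The authors' deposited tables give it folds of 0.891 for sant-null, 0.798 for hda9 and 0.936 for hda6. Each is closer to 1 than the gene fold, but only 985 of the 1800 bp of the island lie in ABI4. The medians over all islands, 0.902, 0.778 and 0.997, also differ from those over all genes. At LEC2 the long island, most of it past the end of the gene, had folds of 0.667 for sant-null, 0.585 for hda9 and 0.849 for hda6 in the authors' deposited tables, with FDR for lower levels of 2.1e-115, 4.6e-194 and 2.14e-28. The short island at the start of LEC2 had folds of 0.662 for sant-null, 0.757 for hda9 and 0.797 for hda6 in the authors' deposited tables, and it too was called lower in each. The gene folds in hda9 and hda6 were 1.15 and 1.31, but both of these islands lie mostly outside the gene, so they cover largely different DNA. Inside ABI5 the authors' deposited tables list an island with folds of 0.889 for sant-null, called lower at an FDR of 0.00642, and of 0.934 for hda9 and 0.917 for hda6, called in neither direction. The gene folds in sant-null and hda6 were 1.24 and 1.15, but island folds and gene folds have different medians. In sant-null ABI5 lay near both medians. Its island fold was 0.889, beside 0.902 over all islands, and its gene log2 ratio was 0.285, beside 0.282 over all genes.

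For sant-null, the authors' deposited table called, at an FDR under 0.05, 6 of 8 islands at the regulators lower and 1 higher, where it called 53.3% of all islands lower and 21.1% higher. For hda6 the authors' deposited table called 3 of 9 lower and 2 higher, beside 28.8% and 26.9% of all islands. For hda9 the authors' deposited table called 6 of 8 lower and 1 higher, beside 68.7% and 20.2%. Of the lower calls in the authors' deposited tables, 4 of 6 for sant-null, 4 of 6 for hda9 and 2 of 3 for hda6 lay on chromosome 1 or 2, as did every higher call. The higher calls in the authors' deposited tables all lay at ABI5, over its start or upstream of it, where they reach into or towards the next gene, AT2G36290. Each call rests on 1 count per genotype, with no replicate.

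**Figure D5:**
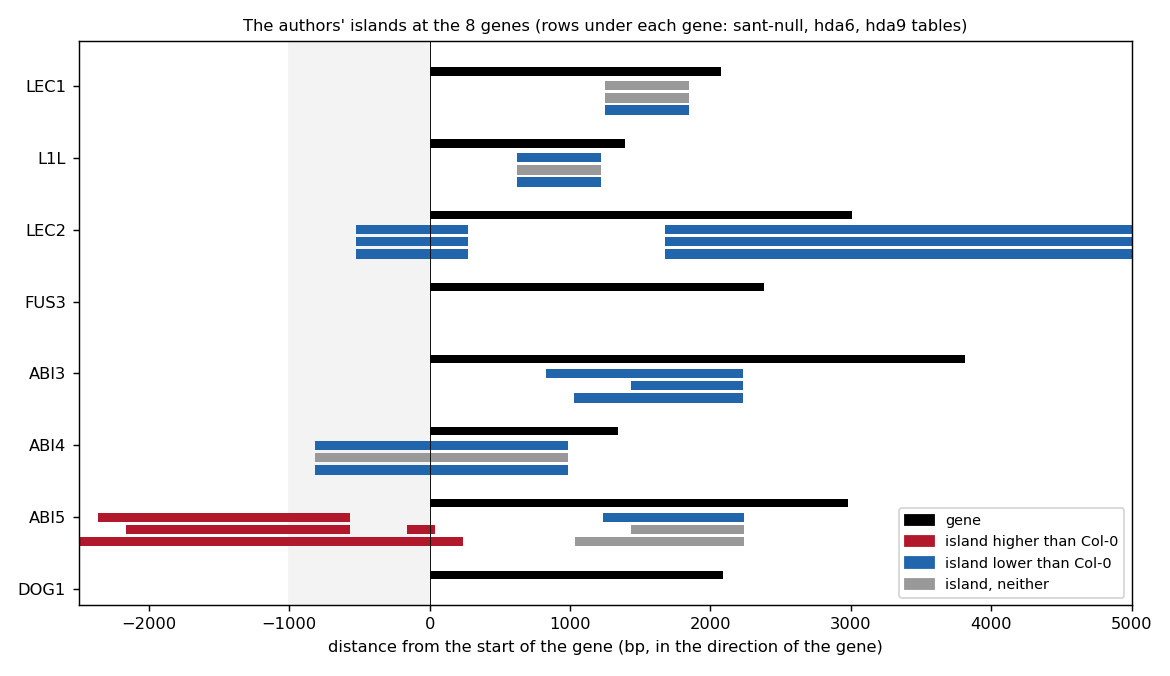
Position of the authors' islands (coloured) at each regulator gene (black), as distance in bp from the start of the gene in its own direction. The rows under a gene are the sant-null, hda6 and hda9 tables, colours give the authors' call at an FDR under 0.05, grey shading marks the 1000 bp before the gene, and islands running past the axis end are truncated. FUS3 and DOG1 have no island, and the islands higher than Col-0 lie at the start of ABI5 or upstream.

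The relatives and partners of the regulators were described in the same way. Among the other 8 genes of the NF-YB family, 1 was higher and 1 lower in sant-null, 1 higher and 0 lower in hda6, and 2 higher and 1 lower in hda9. Over all genes, as above, 23.7% were higher and 6.01% lower in sant-null, 9.08% and 3.05% in hda6, and 43.7% and 9.08% in hda9, so these counts do not set the list of 8 apart. NF-YB2, which acts in flowering and lies near L1L on chromosome 5, had 20.8 RPKM in sant-null and 16.97 in hda9, against 34.5 in Col-0. NF-YB7 had 2.81 RPKM in sant-null and 5.01 in hda9, against 1.10 in Col-0 from 23 reads. NF-YB3 was the one called in hda6, with 16.8 RPKM against 10.1 in Col-0.

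The genes of the known repressors of the network were also read. None of the 3 VAL genes, whose B3 proteins repress the network, was called in any mutant. VAL1 had 8.37 RPKM in sant-null, 9.18 in hda9 and 8.60 in hda6, against 9.11 in Col-0. Of 10 Polycomb and PICKLE genes, 2 were higher in sant-null, 7 in hda9 and 0 in hda6, with 0 lower in any. Over all genes 23.7%, 43.7% and 9.08% were higher in these mutants. Set against genes of like level, the 7 called in hda9 lay between -0.25 and 0.43 of the running median, so 0 of them stayed past 1.5-fold. SWN, which encodes a Polycomb methyltransferase, had 7.58 RPKM in sant-null and 8.99 in hda9, against 3.31 in Col-0. MSI1, a further Polycomb subunit, had 9.29 and 10.6 RPKM in these mutants, against 5.70 in Col-0. VRN2 had 5.28 RPKM in hda9, against 2.201 in Col-0. The list had low Col-0 levels, with a median of 3.28 RPKM, close to the 2.84 of FUS3.

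Among 11 further seed regulators, 2 were higher in sant-null, 5 in hda9 and 1 in hda6, and 1 was lower, in hda9. These shares are near those over all genes, 23.7%, 43.7% and 9.08% higher, with 9.08% lower in hda9. BZIP53, which activates storage protein genes, was called in each mutant, with 12.3 RPKM in sant-null, 11.2 in hda9 and 7.41 in hda6, against 4.17 in Col-0. WRI1, the activator of oil synthesis genes, had 6.28 RPKM in sant-null and 7.34 in hda9, against 3.67 in Col-0. BZIP67, a partner of LEC1 and L1L on seed promoters, was the lower one, with 6.96 RPKM in hda9, against 11.5 in Col-0. Of 8 genes around ABI5 function (ABF1 to ABF4, AFP1 to AFP3 and KEG), AFP1 alone was called, lower in sant-null and hda9. Over all genes 6.01% were lower in sant-null and 9.08% in hda9, with the shares of higher genes as above. AFP1, whose protein binds ABI5, had 12.3 RPKM in sant-null and 9.89 in hda9, against 19.1 in Col-0.

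None of the 6 relatives and phosphatase partners of DOG1 was called in any mutant. Over all genes, 23.7% were higher and 6.01% lower in sant-null, 43.7% and 9.08% in hda9, and 9.08% and 3.05% in hda6. The relative DOGL4 had 9.06 RPKM in sant-null, 7.75 in hda9 and 11.7 in hda6, against 7.75 in Col-0, and DOGL3 had 14.0 to 17.7 RPKM in the mutants, against 12.8 in Col-0. AHG1, a phosphatase bound by DOG1, had 14.1 RPKM in sant-null, 12.5 in hda9 and 17.8 in hda6, against 18.8 in Col-0. The downstream seed genes carried more Khib than most genes in Col-0 seedlings. Their median over 15 loci was 19.5 RPKM in Col-0, beside 10.997 for the 8 regulators and 55.4 for 7 leaf marker genes. Of 14 that passed the filter, 2 were lower in sant-null, SESA1 and SESA3, 0 in hda6 and 6 in hda9, with 0 higher in any, where 6.01%, 3.05% and 9.08% of all genes were lower. Set against genes of like level, the 6 called in hda9 were 0.05 to 0.29 below the running median, and 0 of them stayed past 1.5-fold. HSD1 is listed at 0 in all 4 genotypes. Of the leaf markers, 4 of 7 were lower in sant-null, 6 in hda9 and 1 in hda6, where 6.01%, 9.08% and 3.05% of all genes were lower. Set against genes of like level, 4 in sant-null, 5 in hda9 and 1 in hda6 stayed past 1.5-fold, unlike the seed genes. These leaf genes had a median rank at percentile 99.0 of all genes in Col-0, beside 90.3 for the seed genes. Not all of them ranked so high: RBCS1A had 16.6 RPKM and RBCS3B 15.4 in Col-0, below the seed gene median of 19.5. The rank is one of the mark and not of RNA, and it cannot check the seedling label.

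The genes most like each regulator were sought among long protein-coding genes with a symbol, by the distance of their log2(RPKM + 1) over the 4 genotypes. L1L was closest to PHYD, a phytochrome gene, at a distance of 0.07, and to the clock gene ELF4 at 0.08. LEC1 was closest to FRA8 (0.08) and PDCB4 (0.09), ABI5 to CKX5 and LAC16 (both 0.08), and ABI3 to eIFiso4G2 and PUB13 (both 0.10). FUS3 was nearest EMB2762 (0.10) and CPR1 (0.11), LEC2 nearest ATMAP65-6 (0.11) and PDCB1 (0.12), DOG1 nearest KING1 (0.12) and PAP29 (0.13), and ABI4 nearest TDR1 (0.10) and PRSL1 (0.14). No regulator was among the named neighbours of another. The closest pair of regulators was L1L and ABI4 at 0.36, followed by ABI3 and ABI5 at 0.48, and the farthest was FUS3 and L1L at 4.11.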

How the data were processed

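The authors deposited RPKM values for 32548 genes, 1 per genotype, per the file headers. For islands the authors deposited read counts, RPM (counts scaled to a library total), a fold as the ratio of these, and a p-value with an FDR in each direction, per the file headers. Per the submitters' processing notes, the tools were bedtools, SICER 1.0.3, CASAVA and Bowtie2 2.2.5 on TAIR10, listed in no order. The use of the input and of the 2 replicates behind each value is not stated in the labels or headers. The planned values per library were not in these tables, so the alternative without a test was used.

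RPKM times gene length gave whole reads within 0.01 for 100% of values, which yields the depths. Log2 ratios used a pseudocount of 1, and genes were called at 1.5-fold. Fold intervals are conditional exact (Clopper-Pearson), level intervals exact Poisson, both at 95% and for counting error only, since ChIP reads are not independent molecules. The running median used 1001 genes ordered by mean level. Islands counted at an overlap of at least 1 bp with the gene or 1000 bp before it, at an FDR under 0.05. The windows of 20 flanking genes were added after values were seen. All 32548 loci were found in a TAIR10.1 name table. Positions are 1-based, from the tables. The steps were tested on simulated data (Python 3.11.15, scipy 1.17.1).

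Members and lists were chosen with earlier results of these data known. Named genes were the 8 members, their nearest protein-coding neighbours, up to 3 genes past 1.5-fold per list, and the 2 genes most like each member. VAL1, BZIP67, MSI1, DOGL3, DOGL4 and AHG1 were named after their values were seen. Alternatives were other pseudocounts, scalings, filters and thresholds. Input libraries were not analysed here, and 0 value columns had no genotype.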

Additional observations from a re-analysis of the deposited data

How the results depend on the processing

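No paired analysis was possible because the tables hold 1 value per genotype, and for the same reason no replicate could be left out. With a pseudocount of 0.1, members called higher were 2 in sant-null (FUS3 added) and 1 in hda6 (DOG1), and with 5 they were 0 in hda9. Of the 31805 genes, 9709 were higher in sant-null and 4437 in hda6 with 0.1, and 6448 in hda9 with 5. At 2-fold, 0 members were called higher and 0 lower in sant-null and in hda9. At that threshold 1447 of all genes were higher and 592 lower in sant-null, with 5955 and 877 in hda9. Centring on the median of all genes gave 2 lower in sant-null and 0 higher and 4 lower in hda9. The member medians were then -0.35 in sant-null, -0.65 in hda9 and -0.10 in hda6. Of the 31805 genes, 4330 were lower in sant-null so centred, and 4903 were higher and 7095 lower in hda9. Quantile normalization gave 0 higher in sant-null and 0 higher and 2 lower in hda9, with medians of -0.31 in sant-null, -0.33 in hda9 and -0.0867 in hda6. It called 2316 of all genes higher in sant-null, and 4394 higher and 4801 lower in hda9. Removing the trend on the mean level gave 0 higher in sant-null and 0 higher and 2 lower in hda9 (LEC1 and LEC2 in place of ABI4). The medians were then -0.31 in sant-null and -0.0878 in hda6. With the trend removed, 2353 of all genes were higher in sant-null, and 3037 were higher and 3305 lower in hda9. FUS3 in hda9, called higher at 0.77, had -0.15 after quantile normalization and -0.20 with the trend removed, and the cause was not tested beyond that construction. The ABI4 call in sant-null kept its direction under each scaling. With no filter, or with long protein-coding genes as background, the member counts could not change. All 8 members are kept under both settings, which alter only the other genes. For islands at members, requiring 50% of the island inside left 0 higher in sant-null and in hda9 and 1 in hda6, and an FDR under 0.001 left 1 higher in hda6. Of 6 lower island calls each, the same FDR left 4 in sant-null, recentring on the table median left 4 in hda9, and 50% inside left 5 in both. Depth limits FUS3 and LEC2 most, with 108 to 156 reads at their lowest.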
